A study of Mus musculus with 2 samples.

Results

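The chromatin of 10 genes typical of granulocytes and monocytes was examined in mouse CFU-E, progenitors that are committed to the red cell lineage. The genes, chosen by name, were Cebpa, Cebpb, Cebpe, Irf8, Mpo, Elane, Prtn3, Mmp9, Cd163 and Itgam, out of 21938 protein-coding genes of the GENCODE M21 annotation on the assembled chromosomes. The assay was ATAC-seq, in which the Tn5 transposase inserts adapters where DNA is not wrapped in nucleosomes, so that peaks of reads mark accessible DNA. The cells were primary erythroid progenitors of adult male C57BL/6J mice aged 5 to 6 weeks. Both libraries, of 50000 cells each, belonged to this 1 group and were numbered as biological replicates 1 and 2. They carried 1 donor identifier, and no treatment or genetic change was named in the labels. The design held no comparison between conditions, and how the cells were purified was not stated in the labels.

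Myeloid and erythroid cells arise from shared progenitors. In the myeloid branch, C/EBP factors and PU.1 open the chromatin of granule and surface genes, and IRF8 steers cells towards the monocyte fate. In the erythroid branch, GATA1 acts with KLF1 on red cell genes, and GATA1 and PU.1 oppose each other. CTCF, a factor found in nearly all cell types, binds insulator sites and anchors chromatin loops.

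Overlapping peaks were merged into regions. A region was assigned to a gene when it overlapped the gene body, or when its midpoint lay within 100 kb of one of the gene's annotated starts and no other protein-coding gene had a nearer start. It was called a promoter region when it reached within 1 kb of any start of that gene, and distal when it reached within 1 kb of no protein-coding start. The main list was the authors' series list thresholded on the irreproducible discovery rate (IDR), a measure of how well peaks repeat, with 24394 regions. Fold is the enrichment of a peak over local background and −log10 p its significance, both the authors' own values, used here to describe and rank regions within a list. The median region had a fold of 7.57 and a −log10 p of 56.2. Peak lists hold no read totals, so the depth of the libraries is unknown and absence from a list does not show closed chromatin. Cells of another type within the population and accessibility in the erythroid cells themselves cannot be told apart in bulk peak lists.

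The erythroid identity of the population was checked on 9 marker genes of red cell precursors, among them Gata1, Klf1 and Epor. In the series list 9 of 9 had a promoter region, and 8 of 9 had it at the 5-prime end. In the thresholded list of each library, 8 of 9 had a promoter region, with Alas2 missing from both. Of the marker lists of other blood cells, 4 of 8 megakaryocyte genes, 1 of 6 T and NK cell genes, 1 of 6 B cell genes, 0 of 6 mast cell, basophil and eosinophil genes and 0 of 7 macrophage genes had one. Of all protein-coding genes, 45.8% had one. Any region was found for 4 of 8, 2 of 6, 1 of 6, 0 of 6 and 2 of 7, in that order. The share of all genes with any region was 55.1%. Whether cells of other lineages contributed to the regions below was not tested.

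Of the 10 granulocyte and monocyte genes, 4 had a promoter region in the series list (Cebpb, Prtn3, Mmp9 and Cd163), where 45.8% of all protein-coding genes had one. Only Cebpb had it at the 5-prime end of the gene (1 of 10), against 42.5% of all genes. The other 3 regions lay inside the genes, near starts of internal transcripts. Among all genes with a promoter region, 7.32% had it at an internal start only. At least 1 region of any kind was found for 5 of 10 genes, the same 4 and Cebpe, beside 55.1% of all genes. Distal regions were found for 3 of 10 genes (Cebpb, Cebpe and Prtn3), beside 28.2% of all genes. The 10 genes had 9 regions in all, of which 5 were distal. Cebpa, Irf8, Mpo, Elane and Itgam had none.

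**Figure D1:**
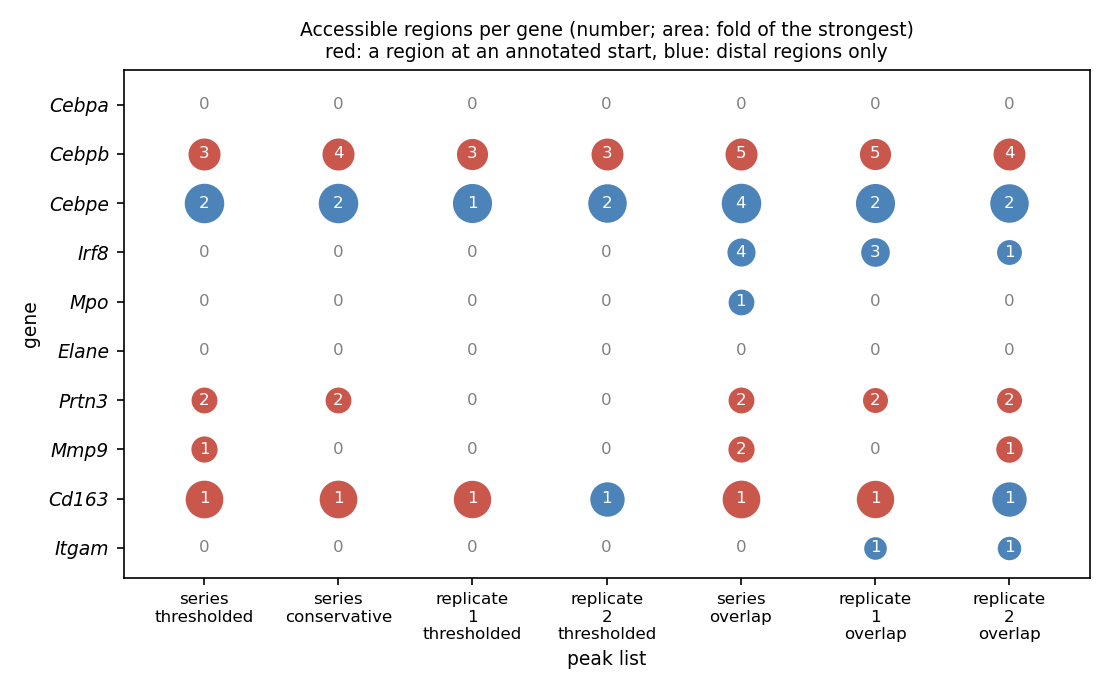
Number of accessible regions assigned to each of the 10 genes (rows) in 7 peak lists (columns). Circle area grows with the fold of the strongest region, red marks genes with a region within 1 kb of an annotated start, blue marks genes with other regions only, and a grey 0 marks no region; Cebpb, Cebpe and Cd163 have regions in every list shown, and Cebpa and Elane in none.

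Cebpb (chr2:167688915-167690418, plus strand) encodes C/EBPβ, a transcription factor of macrophages and of emergency granulocyte production that is also used outside the blood. It had 3 regions in the series list. The first covered its start (chr2:167688817-167689046 on mm10, midpoint 16 bp inside the gene), with a fold of 5.18 and a −log10 p of 35.2, which placed it at percentile 22.2 of all regions by fold. In replicate 1 the fold there was 4.85 and in replicate 2 it was 5.06, so the libraries were close. A start of the neighbouring gene Tmem189 lay 891 bp from the midpoint, and the summits of all 3 Cebpb regions lie in Tmem189 introns, so the region cannot be assigned to Cebpb alone. The part of the region before the Cebpb start is shown because its base composition sets it apart from the other 8 regions. It runs along the plus strand of chr2:167688817-167688914, and capitals mark CpG dinucleotides:
Cebpb promoter: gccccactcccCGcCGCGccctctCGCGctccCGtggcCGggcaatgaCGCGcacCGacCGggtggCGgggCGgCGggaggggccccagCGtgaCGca
The region held 17 CpG per 100 bp, and the other 8 regions held between 1.14 and 5.91.

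The other regions of Cebpb were distal, in Tmem189 introns before the Cebpb start. The one 8.69 kb before it (chr2:167679956-167680500) had a fold of 7.56 and a −log10 p of 61.5, at percentile 49.8 by fold. Its fold was 7.06 in replicate 1 and 7.51 in replicate 2. The one 3.6 kb before the start (chr2:167685191-167685449) had a fold of 5.03, with 4.69 in replicate 1 and 4.85 in replicate 2. All 3 Cebpb regions were in the thresholded list of each library, and Cebpb was the only one of the 10 genes with a promoter region at its 5-prime end in every list shown.

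Cebpe (chr14:54710360-54712174, minus strand) encodes C/EBPε, which drives the late steps of granulocyte maturation and the genes of secondary granules. It had no promoter region in any list shown but had the strongest region of the set. That region lay 6.19 kb downstream of the start, in intergenic DNA past the end of the gene (chr14:54705593-54706381), with a fold of 12.3 and a −log10 p of 195. It stood at percentile 85.2 of all regions by fold and 94.7 by −log10 p. The fold was 12 in replicate 1 and 11.6 in replicate 2, and both libraries had it in their thresholded lists. The nearest other gene start, that of Gm29776, lay 7.15 kb from its midpoint, only slightly farther than that of Cebpe.

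The Cebpe downstream region is shown in sequence because it held 2 copies of a paired motif. The stretch is chr14:54705892-54706127, read on the minus strand, which is the coding strand of Cebpe. Capitals mark the GATA pairs, each a CTG followed after 7 to 9 bases by a GATA site (GATA with A or T before it and A or G after it), the arrangement associated with joint binding of GATA1 and TAL1:
Cebpe downstream: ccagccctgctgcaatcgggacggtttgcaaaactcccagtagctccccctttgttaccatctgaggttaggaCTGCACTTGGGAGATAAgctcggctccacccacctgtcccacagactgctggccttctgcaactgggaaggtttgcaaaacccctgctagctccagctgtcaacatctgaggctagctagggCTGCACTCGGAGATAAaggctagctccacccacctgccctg
The 2 pairs lay 122 bp apart within 2 copies of a repeated unit, 85 and 86 bp long, that matched in 70 of 90 aligned columns (77.8%). At least 2 such pairs within 301 bp around the summit were found in 0.849% of all regions. This measure and its window were chosen for this region after its sequence had been seen. One pair fell within 100 bp of the summit, as it did in 9.44% of regions.

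The other Cebpe region of the series list lay 2.05 kb upstream of the start (chr14:54713972-54714485), with a fold of 7.21 and a −log10 p of 38.5. The fold was 6.95 in replicate 1 and 6.12 in replicate 2. It was in the thresholded list of replicate 2, with a score of 706, but not in that of replicate 1, where its score of 450 fell below the threshold of 540. The score expresses IDR on a scale that ends at 1000.

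Prtn3 (chr10:79874476-79883174) and Elane (chr10:79886247-79888215), both on the plus strand, encode proteinase 3 and neutrophil elastase. These serine proteases of the primary granules of neutrophils have neighbouring genes. Prtn3 had 2 regions and Elane had none. The first Prtn3 region lay over an exon 7.64 kb from the 5-prime start (chr10:79881932-79882303), with a fold of 4.12. Its fold was 3.94 in replicate 1 and 4 in replicate 2. Of the 4 transcripts with a start within 1 kb of it, 3 are annotated as retained introns and 1 as protein-coding. The second lay between both genes (chr10:79883726-79884160), with a fold of 4.38, and with 3.99 in replicate 1 and 4.02 in replicate 2. Its midpoint was 2160 bp from the nearest Prtn3 start and 2304 bp from the Elane start, and with 5-prime starts only it went to Elane. In that setting Elane had 2 regions and Prtn3 had 1, since the exon region was nearest to the Elane start and counted for both genes. Both were weak, at percentiles 9.92 and 12.7 by fold, and neither was in the thresholded list of either library, although both were in the overlap list of each.

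Mpo (chr11:87793581-87804413, plus strand) encodes myeloperoxidase, the enzyme that makes hypochlorous acid in neutrophil granules. It had no region in the series list, and the nearest region to its start was 22.1 kb away and belonged to Tspoap1. In the overlap list it had 1 region, 12.1 kb past its 5-prime start (chr11:87805567-87805743), with a fold of 4.35. The sequence of that region was 85.3% repeat-masked, and it was in neither library's own overlap list.

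Mmp9 (chr2:164940780-164955850, plus strand) encodes gelatinase B, a matrix metalloprotease stored in tertiary granules of neutrophils. Its region lay 12.7 kb past the 5-prime start (chr2:164953269-164953745), 641 bp from the start of 1 internal transcript of the processed-transcript type. The summit was in an intron, and the region also reached into a coding exon. The fold was 4.55 and the −log10 p 15.9, the lowest −log10 p of the 9 regions. Replicate 2 had the region in its overlap list, with a fold of 4.68, and replicate 1 had it in neither list. Its score was 682 between pseudoreplicates, which are splits of the pooled reads, and 350 between the true replicates, so it was absent from the authors' conservative list. Of the 9 regions, the other 8 were in the conservative list, beside 91% of all series regions.

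Cd163 (chr6:124304656-124330527, plus strand) encodes the macrophage receptor that takes up haemoglobin bound to haptoglobin, and so clears what red cells release. Its region was an intronic one, 17.1 kb past the 5-prime start and 1092 bp wide (chr6:124321250-124322341). The fold was 11 and the −log10 p 68.9, at percentiles 77.6 and 56.1. The fold was 10.9 in replicate 1 and 8.95 in replicate 2, and both libraries had the region in their thresholded lists. It counted as a promoter region through the start of 1 retained-intron transcript, 763 bp from its edge. In replicate 2 the narrower peak ended 1006 bp from that start, so there the same region counted as distal.

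The Cd163 region is shown because it held ETS, PU.1 and RUNX consensus matches together and no GATA match. The stretch is the plus strand of chr6:124322084-124322234, and capitals mark, in order, an ETS match (ACCGGAAGT on the other strand), a RUNX match (TGTGGTT on the other strand), a PU.1 match (AAGGAAGT on the other strand) and a second RUNX match:
Cd163 intron: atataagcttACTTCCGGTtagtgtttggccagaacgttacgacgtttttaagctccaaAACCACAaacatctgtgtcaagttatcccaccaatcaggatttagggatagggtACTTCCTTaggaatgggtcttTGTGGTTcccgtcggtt
The whole region held 1 ETS, 2 PU.1 and 3 RUNX matches. Windows of 1092 bp were centred on the midpoints of all regions, whose median width was 591 bp, so most windows reached past their region. Of these windows, 0.0656% held at least 1 ETS, 1 PU.1 and 1 RUNX match (16 of 24394), and 75% held a GATA match. The 4 matches shown began 405 to 529 bp from the strongest summit, and none lay within 100 bp of it. In the thresholded and overlap lists of each library the peak ended at position 124321960, before the stretch shown. The stretch is thus part of the series region but of neither library's own peak. This arrangement was looked for after the sequence had been seen, and a match is not a measurement of binding.

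Itgam (chr7:128062640-128118491, plus strand) encodes CD11b, the integrin chain of Mac-1 on granulocytes, monocytes and macrophages. It had no region in the series list or in the series overlap list. The nearest region to its start was 70.5 kb away in the series list, at Pycard, and 30.8 kb away in the overlap list, at Trim72. Each library's own overlap list had 1 region before the gene, 11.7 kb from the start with a fold of 3 in replicate 1 and 19.9 kb from the start with a fold of 3.36 in replicate 2, so the positions differed.

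Cebpa (chr7:35119293-35121928, plus strand) encodes C/EBPα, which starts granulocyte and monocyte commitment. It had no region in the series list or the overlap list, and none in either library. The nearest series region to its start lay 62.4 kb away, at the promoter of Cebpg, with a fold of 12.3. Irf8 (chr8:120736358-120756694, plus strand) encodes the factor that favours monocytes over granulocytes. It had none in the series list, and 4 distal regions in the overlap list, 64.3 to 112 kb past its 5-prime start. The strongest of them (chr8:120828162-120828631) had a fold of 5.46, with 5.73 in replicate 1 and 3.95 in replicate 2, and lay in an intron of the gene model Gm20388. Replicate 1's own overlap list also had a region over an Irf8 exon (chr8:120742051-120742394), 5.86 kb past the 5-prime start, with a fold of 3.91. Replicate 2's overlap list had none there.

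**Figure D2:**
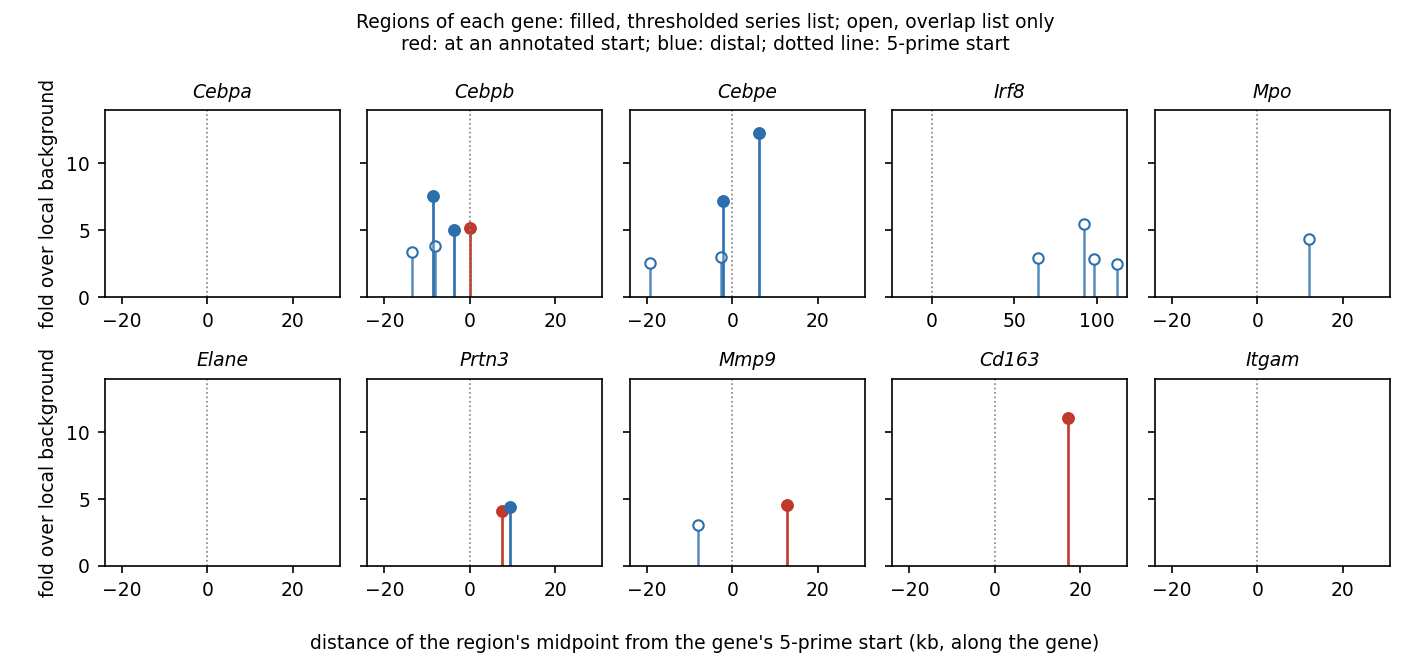
Distance of each region's midpoint from the 5-prime start of its gene in kb (x axis, positive into and past the gene) against its fold over local background (y axis), 1 panel per gene with its own x range. Filled points are regions of the thresholded series list and open points regions of the overlap list only; red marks regions within 1 kb of an annotated start, and only Cebpb has one at the dotted 5-prime start.

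The ranks of the 9 regions ranged widely. The Cebpe downstream and Cd163 regions stood above the median fold of 7.57, the Cebpb region at 8.69 kb (7.56) and the Cebpe upstream region (7.21) stood just below it, and the other 5, with folds of 4.12 to 5.18, were at or under percentile 22.2. Just inside the score threshold of 540 were the Prtn3 exon region (598), the Mmp9 region (682) and the Prtn3 intergenic region (723). Just outside it were a Cebpb region 13.6 kb before the start (525), the Mpo region (504), the strongest Irf8 region of the overlap list (442) and a Cebpb region 8.05 kb before the start (439). Between the true replicates the latter scored 822, and it was in the conservative list.

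**Figure D3:**
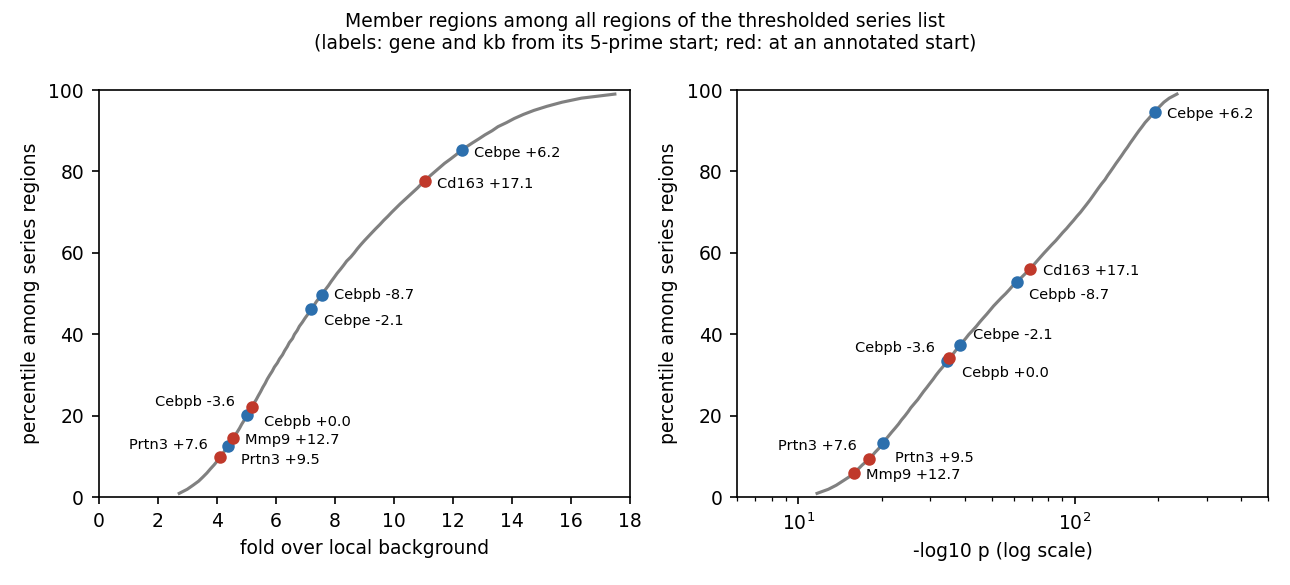
Fold over local background (left) and −log10 p on a log axis (right) of the 9 regions, against their percentile among the 24394 regions of the thresholded series list, whose distribution is the grey line. Labels give the gene and the distance in kb from its 5-prime start, and red marks regions within 1 kb of an annotated start; Cebpe +6.2 is highest in both panels.

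Each library's own lists were then compared. Of the 9 series regions, 5 were in the thresholded list of replicate 1, where 74.9% of all series regions were found, and 6 in that of replicate 2, where 70.6% were. The regions in neither were the pair at Prtn3 and the one at Mmp9. In the less strict overlap lists, replicate 1 had 8 of 9 (95.8% of all series regions) and replicate 2 had 9 of 9 (93.7%). A promoter region was found for 2 of 10 genes in replicate 1 (Cebpb and Cd163), beside 43.5% of all genes, and for 1 of 10 in replicate 2 (Cebpb), beside 42.6%. At least 1 region was found for 3 of 10 genes in each, beside 50.2% and 49.2% of all genes, and the genes were Cebpb, Cebpe and Cd163 in both. The libraries differed by less than a split of their pooled reads: the median absolute centred log2 ratio of −log10 p over all ranked records was 0.297 between the replicates and 0.397 between the pseudoreplicates. These values do not show whether the libraries came from separate animals, which was not stated. With 1 donor identifier, they were counted as 1 sample, and no SD is given.

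**Figure D4:**
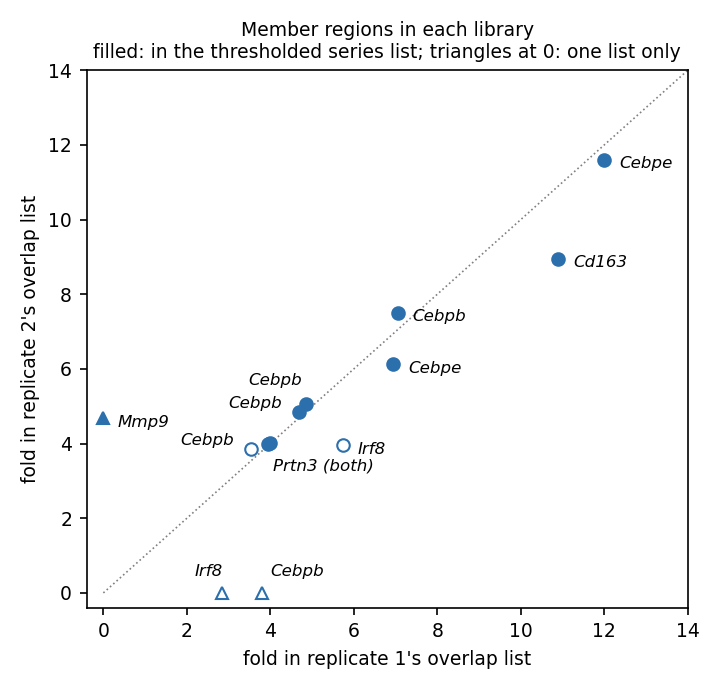
Fold of each region of the series overlap list in replicate 1's overlap list (x axis) against replicate 2's (y axis), where at least 1 had it. Regions of a single library that the series overlap list lacks are not drawn. Filled points are regions of the thresholded series list, open points are regions of the series overlap list only, triangles at 0 are regions listed by 1 library only and the dotted line marks equal folds; Cebpe, Cd163 and Irf8 points lie on the side of replicate 1.

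In the series overlap list, which is less strict and holds 42936 regions, the 10 genes had 19 regions and 7 of 10 had at least 1, beside 67.7% of all genes. Mpo and Irf8 were the genes added. A promoter region was found for the same 4 genes, beside 52.3%, and distal regions for 6 of 10, beside 46.8%. The 10 regions that the overlap list added to the 9 had folds of 2.5 to 5.46.

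Base composition at the 5-prime starts was compared with the presence of a region there, since CpG-rich starts were accessible more often over all genes. The CpG content of 500 bp to each side of a start is given as the ratio of observed to expected CpG. Cebpb, at 1.01, had a region, as did 80.8% of genes within 0.05 of that ratio. Cebpa, at 0.889, had none, although 80.1% of the 2240 genes within 0.05 of it had one. Irf8, at 0.735, and Prtn3, at 0.72, also had none, against 71.5% and 69.9% of the genes like them. The other 6 genes had ratios of 0.148 to 0.369 and no region at the start, and between 4.19% and 20.2% of genes like them had one. Cebpa, Irf8 and Prtn3 were thus the 3 with CpG-rich starts and no region there in the series list. The start of Plppr3 lay 158 bp from that of Prtn3, so the CpG ratio there cannot be assigned to Prtn3 alone.

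**Figure D5:**
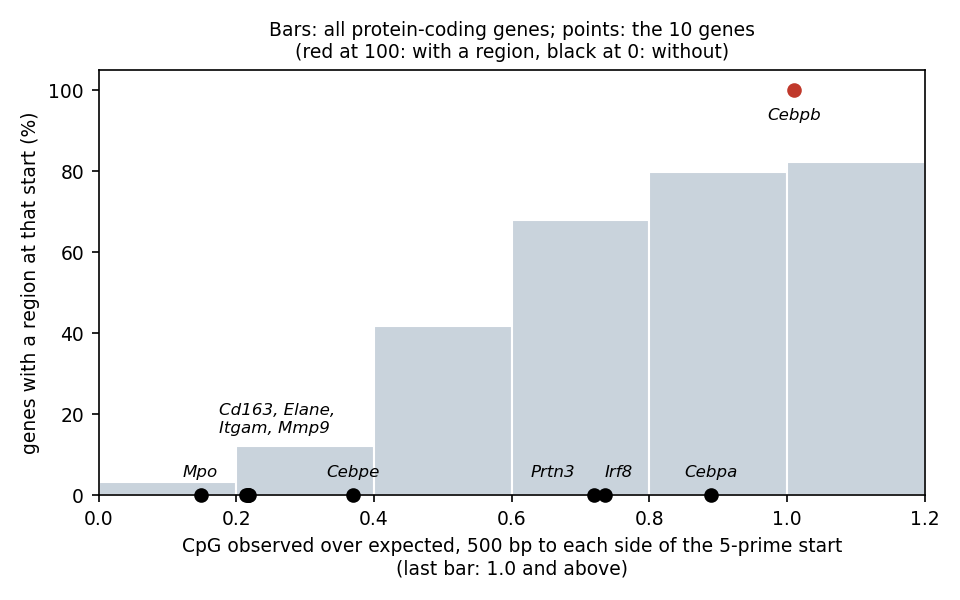
Share of all protein-coding genes with a region at their 5-prime start (y axis, %, bars) by the ratio of observed to expected CpG around that start (x axis). Points are the 10 genes, in red at 100 where there was a region (Cebpb, at 1.01) and in black at 0 where there was none; Cebpa, Irf8 and Prtn3 lie where the bars stand above 60.

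The summits of the 9 regions were searched within 100 bp, on both strands, for consensus sequences of blood cell factors. A GATA match was found in 1 of 9 (the Cebpe downstream region), beside 33% of all regions, and a KLF match (CCACACCC, CCACGCCC, CCCCACCC or CCCCGCCC) in 1 of 9 (Mmp9), beside 29.4%. No match was found for C/EBP (TTGCACAAC, TTGCACAAT, TTGCGCAAC or TTGCGCAAT), PU.1 (AAGGAAGT or GAGGAAGT) or RUNX (TGNGGTN, where N is C or T), beside 0.221%, 2.86% and 9.54% of all regions. A match to at least 1 of the GATA, C/EBP, PU.1 and RUNX consensus sequences was found in 1 of 9, beside 41%. The absence of a match says only that these letters are not in the window.

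The CTCF consensus was matched in full in 1 of 9 regions, the Cebpe upstream one, beside 6.96% of all regions. With 1 mismatch allowed, a setting chosen after the sequences had been seen, 5 of 9 regions held a match in the same windows, beside 19.1% of all regions. They were both distal Cebpb regions, the Cebpe upstream region, the Prtn3 intergenic region and the Mmp9 region. The matches were centred 2 to 20 bp from the summit. They are shown so that the shared core can be read, with 25 bases to each side, each in the orientation of the consensus and with the matched bases in capitals. The Cebpb 8.69 kb stretch is on the minus strand (chr2:167680103-167680164). The others are on the plus strand, at chr2:167685299-167685360 for Cebpb 3.6 kb, chr14:54714242-54714303 for Cebpe upstream, chr10:79883817-79883878 for Prtn3 and chr2:164953409-164953470 for Mmp9:
Cebpe upstream: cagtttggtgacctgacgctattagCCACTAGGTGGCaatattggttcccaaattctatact
Cebpb 8.69 kb: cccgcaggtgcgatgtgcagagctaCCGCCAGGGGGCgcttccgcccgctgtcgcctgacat
Cebpb 3.6 kb: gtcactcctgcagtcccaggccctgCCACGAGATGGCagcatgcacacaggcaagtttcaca
Prtn3 intergenic: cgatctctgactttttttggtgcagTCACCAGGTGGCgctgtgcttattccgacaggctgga
Mmp9 intron: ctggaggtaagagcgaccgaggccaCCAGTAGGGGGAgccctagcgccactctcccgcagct
Of the 4 regions without such a match, 2 were the strongest of the set by fold (Cebpe downstream and Cd163), and the others were the Cebpb start and the Prtn3 exon. All sequences are from the RefSeq copy of GRCm38.p6.

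A list of 36 other genes of the granulocyte and monocyte lineage stood beside the 10. In the series list 1 of 36 had a promoter region, beside 45.8% of all genes. This was Fcgr3, a receptor for the Fc part of antibodies (fold 5.32). At least 1 region was found for 12 of 36, beside 55.1% of all genes, with 27 distal regions in all. In the overlap list 5 of 36 had a promoter region, beside 52.3% of all genes. Those added were the C/EBP family gene Cebpd (fold 3.57), the growth factor receptor chain Csf2ra (5.01), the endotoxin receptor Cd14 (2.85) and the NADPH oxidase subunit Ncf4 (4.5). By presence of a promoter region in the series, overlap, replicate 1 and replicate 2 thresholded lists, Cebpb was most like Fcgr3, with a region in all 4. Distal regions were counted here in the series list only, where Fcgr3 had 5 and Cebpb 2. Of all protein-coding genes, 41.9% had a region in all 4. Cebpe had none in all 4 and 2 distal regions, as did Cx3cr1, a chemokine receptor of monocytes. Cebpa, Irf8, Mpo, Elane and Itgam had none in all 4 and no distal region in the series list, as did 23 of the 36. The share of all genes with both traits was not counted. By promoter regions alone, 31 of the 36 had one in none of the 4 lists, beside 47.7% of all genes. No gene of the 36 had the pattern of Prtn3 and Mmp9 (series and overlap lists only, 1.79% of all genes) or of Cd163 (also replicate 1, 1.43%). Spi1, which encodes PU.1, had 1 distal region, with a fold of 6.8.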

How the data were processed

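ATAC-seq peak lists on mm10 were used from 2 libraries of 1 group. Peaks were called by the authors on each library and on the pooled reads, per the deposited listing. No aligner or peak caller is named in the labels or headers. The authors deposited fold enrichment as a ratio over local background, −log10 p values and an IDR score of at most 1000. Every record of the thresholded series list was found at a score of 540 or more in the list ranked on pseudoreplicates.

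Records that overlapped or touched were merged (Python 3.11.15, numpy 2.4.6) and assigned with GENCODE M21. Lists were compared by overlaps of at least 1 bp. Consensus sequences were searched in GRCm38.p6 (pysam 0.24.0). Scripts were tested on simulated data. No test was made, because there is 1 group. The genes, lists and settings were chosen with earlier results of these data known. 1 item of the erythroid marker list is not reported here. All 10 genes were named; other genes were named when they had a promoter region in the series or overlap list, shared a gene's pattern or had a nearby start. Alternatives covered the list, library, window, distance, competing genes, starts, merging and summit.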

Additional observations from a re-analysis of the deposited data

How the results depend on the processing

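Counts in the thresholded series list were 4 genes with a promoter region, 5 with any region, 5 distal regions and 9 regions in all. With 5-prime starts only they were 1 gene with a promoter region and 8 distal regions. With a promoter window of 500 bp, 2 genes had one. In the upper 50% of regions by fold they were 1, 2, 1 and 2. In the overlap list distal regions were 15 and regions 19. Leaving out either replicate gave 1 to 2 genes with a promoter region, 3 genes with any region, 3 to 5 distal regions and 5 to 6 regions. In 2 lists chosen after seeing the data, the pseudoreplicate overlap list gave 8 genes with any region, 14 distal regions and 19 regions, and the older archived list gave 8, 10, 75 and 94. At least 1 region was found for 67.5% of all genes in the pseudoreplicate overlap list and for 86.6% in the older list. In the older list 68.8% of all genes had a promoter region. The starts of Cebpa (fold 3.16), Irf8 (3.26), Prtn3 (4.1), Cd163 (2.7) and Itgam (3.04) were listed there, near the list's median fold of 3.32 or below, except Prtn3. The Prtn3 region given here lay nearest to a start of Plppr3. The conservative list, the 50 kb distance, competition by genes of every biotype and merging across short gaps kept each of these counts within 1.5 times. So did other rules of overlap for the regions found in each replicate, and other windows and summits for the count of regions with a GATA, C/EBP, PU.1 or RUNX match. Of the counts of regions per gene, 87 of 120 over all alternatives were unchanged or within 1.5 times, and 33 were not. The 87 do not measure stability. Many belong to Cebpa, Irf8, Mpo, Elane and Itgam with no region in either list compared, where a ratio has no meaning. The promoter window of 500 bp could not change counts per gene, because assignment to a gene does not use it. No paired analysis was possible because there is 1 group. Without read totals, the depth behind an unlisted region is unknown.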
